A study of Mus musculus with 4 samples.

Results

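The genes of 10 intermediate filament proteins were followed in C3H10T1/2 cells, a mouse mesenchymal stem cell line derived from C3H embryos, with and without 5-AZA (5-azacytidine), a cytidine analogue that lowers DNA methylation. The 10 genes were the keratins Krt5, Krt7, Krt8, Krt14, Krt18, Krt19, Krt20 and Krt80, vimentin (Vim) and nestin (Nes), out of 21878 genes in the mRNA table. They were chosen by name with earlier values of the same comparison in view, so their differences between the groups are given below as a description and without a test. The untreated group held 2 samples (replicates 1 and 2), for which the labels list no culture time. The 5-AZA group held 2 samples (replicates 101 and 102) of the same line, given 20 μM 5-AZA for 72 hours and then cultured in fresh medium for 21 days. The study calls the samples of a group biological repeats, and the labels do not say whether they came from separate cultures, so p-values measure the spread between these samples. Levels are FPKM, the fragments of a transcript scaled to its length and to the sequenced fragments, summed over the transcripts of a gene. The study asked how RNA levels differ when these cells are induced toward muscle and heart muscle.

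Intermediate filaments are the ropes of the cytoskeleton that give a cell its resistance to stretch. Keratins are the filament proteins of epithelia, and they assemble only as pairs of a type II keratin (here Krt5, Krt7, Krt8 and Krt80) with a type I keratin (here Krt14, Krt18, Krt19 and Krt20). Krt8 with Krt18 is the pair of simple, single-layered epithelia, and Krt5 with Krt14 is that of the basal layer of stratified epithelia. Vimentin is the filament protein of mesenchymal cells, and nestin is found in neural and muscle progenitor cells, where it assembles together with vimentin.

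The stretches just upstream of 4 of these genes are shown because these genes had the largest levels or differences, and because cytosines followed by guanine (CpG) are the positions that DNA methylation uses. Each run holds the 250 bases upstream of a RefSeq start (GRCm38.p6), written 5′ to 3′ on the strand of the gene, with every CpG in capitals. Methylation was not measured in these samples.
Krt8 (chr15:102004343-102004592, minus strand): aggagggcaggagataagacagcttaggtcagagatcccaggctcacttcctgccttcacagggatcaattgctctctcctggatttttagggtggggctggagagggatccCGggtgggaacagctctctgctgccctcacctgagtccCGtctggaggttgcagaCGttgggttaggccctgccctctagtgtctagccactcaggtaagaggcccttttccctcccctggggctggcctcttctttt
Krt18 (chr15:102027966-102028215, plus strand): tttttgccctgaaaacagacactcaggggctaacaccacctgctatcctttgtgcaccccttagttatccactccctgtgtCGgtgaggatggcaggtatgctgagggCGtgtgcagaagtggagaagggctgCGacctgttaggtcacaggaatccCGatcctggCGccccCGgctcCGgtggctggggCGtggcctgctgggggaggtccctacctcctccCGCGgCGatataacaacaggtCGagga
Vim (chr2:13574061-13574310, plus strand): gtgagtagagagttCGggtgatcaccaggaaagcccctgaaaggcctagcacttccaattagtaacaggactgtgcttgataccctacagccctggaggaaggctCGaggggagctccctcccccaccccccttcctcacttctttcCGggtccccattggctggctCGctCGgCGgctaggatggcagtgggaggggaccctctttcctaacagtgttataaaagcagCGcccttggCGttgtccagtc
Nes (chr3:87970843-87971092, plus strand): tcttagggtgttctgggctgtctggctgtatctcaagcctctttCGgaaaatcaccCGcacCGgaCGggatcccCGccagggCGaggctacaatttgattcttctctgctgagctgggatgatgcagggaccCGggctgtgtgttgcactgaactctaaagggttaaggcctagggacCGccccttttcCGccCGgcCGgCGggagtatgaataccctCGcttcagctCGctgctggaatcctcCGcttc
The Krt8 run held 3 CpGs, that of Krt18 12, that of Vim 8 and that of Nes 15. Over all 32851 windows of the same length the median was 6 CpGs, and 29.0% of the windows held fewer than Krt8, 66.5% fewer than Krt18, 57.0% fewer than Vim and 72.7% fewer than Nes. The partners Krt8 and Krt18 thus lay on either side of the median. Of the other members, Krt7 had 16 CpGs, Krt14 and Krt20 had 5 each and Krt5 had 2. The Krt14 run lay at a RefSeq start inside the gene and not at its outer end. Windows were found for 8 of the 10 members, and Krt19 and Krt80 had no entry.

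A search on both strands for 6 short motifs, none of which holds the letters of another, gave few matches in these 8 windows. TATAA was present upstream of Krt18, Krt20 and Vim and in 22.8% of all windows. CACCTG, the letters that the Snail and Zeb repressors can bind, was present upstream of Krt5, Krt7, Krt8 and Krt18 and in 17.2% of all windows. GGGCGG was found for Krt7 and Nes (32.7% of all windows) and CCAAT for Vim (33.8%). TGACTCA (4.46% of all windows) and AACCGGTT (0.116%) were found in none of the 8. A match is a match of letters and no evidence of binding.

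Krt8 was the keratin with the highest level after 5-AZA. Its level was 0.395 and 0.379 FPKM in the untreated samples and 15.3 and 19.4 FPKM in the 5-AZA samples. The groups did not overlap, and the mean level was 44.8 times as high after 5-AZA (0.387 ± 0.0108 against 17.3 ± 2.93 FPKM, SD, n = 2 each). On the scale of log2(FPKM + 0.1), which is used for every log2 difference given here, Krt8 was 5.15 higher (SE 0.20). The fit covered 13199 genes whose mean over the 4 samples reached 0.1 FPKM, and 124 of them had a larger rise.

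Krt18, the type I partner of Krt8, was close to 0 in untreated cells. Its level was 0.0150 and 0 FPKM in the untreated samples and 4.22 and 4.99 FPKM after 5-AZA. No overlap was seen, and the log2 difference was 5.45 (SE 0.29). With an untreated level this low the size of that difference follows the pseudocount, and it was 2.47 with 1 FPKM and 8.18 with 0.01 FPKM in place of 0.1 FPKM.

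**Figure D1:**
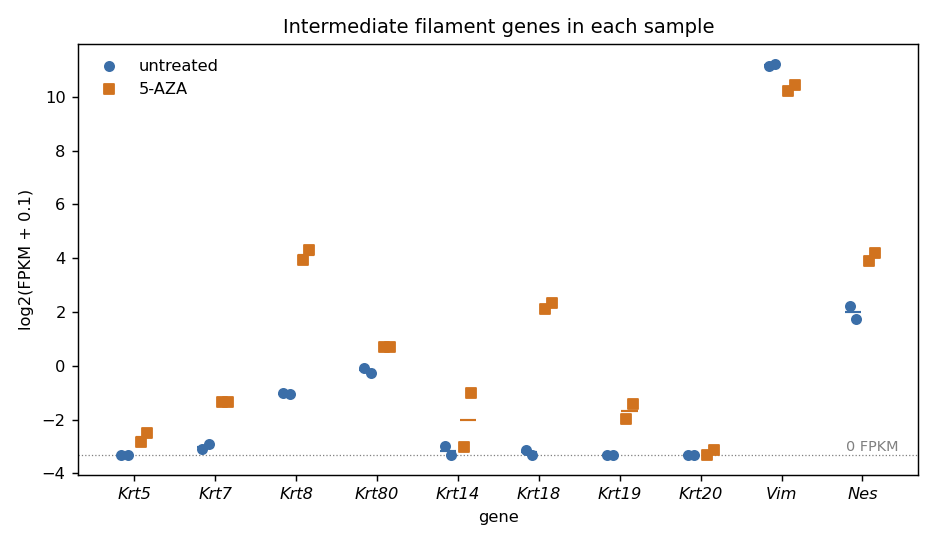
Level of each of the 10 genes in each sample, as log2(FPKM + 0.1), with untreated samples as circles and 5-AZA samples as squares and short lines for group means of 2 samples. Krt8, Krt18 and Nes stood clearly higher in both 5-AZA samples, Vim stood highest in all samples and lower in the 5-AZA samples, and the dotted line marks 0 FPKM.

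After 5-AZA the other simple epithelial keratins lay far below this pair. Krt7, a type II keratin of ducts and of the bladder lining, was at 0.0179 and 0.0328 FPKM in untreated cells and at 0.292 and 0.291 FPKM after 5-AZA, a log2 difference of 1.65 (SE 0.38). Krt19, a type I keratin of simple and ductal epithelia, was listed at 0 in both untreated samples and at 0.154 and 0.277 FPKM after 5-AZA. Krt20, a type I keratin of gut lining and of bladder umbrella cells, was listed at 0 in 3 samples and at 0.0139 FPKM in 5-AZA replicate 102. Both groups were thus apart for Krt7 and Krt19 and overlapped for Krt20. No fold is given for Krt19, Krt20 and Krt5, whose untreated samples were both listed at 0.

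The keratins of the stratified basal layer gave no shared picture. Krt5 was listed at 0 in both untreated samples and at 0.0418 and 0.0792 FPKM after 5-AZA. Its partner Krt14 was at 0.0262 and 0 FPKM in untreated cells and at 0.0223 and 0.391 FPKM after 5-AZA. One 5-AZA sample lay within the untreated range, so the Krt14 difference of 1.13 (SE 0.64) rested on replicate 102. There the transcript NM_016958.2 made up all of the level, with 0.391 FPKM, against 0.00969 FPKM in replicate 101.

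Krt80, a type II keratin found in many epithelia, was the most abundant keratin of the untreated cells when all transcripts were summed. It was at 0.836 and 0.741 FPKM there and at 1.53 and 1.54 FPKM after 5-AZA, a log2 difference of 0.88 (SE 0.24). The groups did not overlap, and the mean was 1.95 times as high after 5-AZA. The curated transcript NM_028770.2 held 83.0% and 34.5% of the untreated level and 66.3% and 52.1% of the 5-AZA level, with the rest in a predicted transcript. Counting the curated transcript alone, the level was 0.695 and 0.256 FPKM in untreated cells and 1.02 and 0.801 FPKM after 5-AZA. In untreated replicate 2 that level lay below Krt8, which was at 0.379 FPKM.

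Seen as a whole, the keratin pool was larger and differently composed after 5-AZA. The 8 keratins summed to 1.29 and 1.15 FPKM in the untreated samples and to 21.5 and 27.0 FPKM in the 5-AZA samples. Krt8 and Krt18 together made up 31.7% and 32.9% of that sum in untreated cells and 90.5% and 90.4% after 5-AZA. The share of Krt80 was 64.8% and 64.3% in untreated cells and 7.12% and 5.69% after 5-AZA. The 2 samples of each group lay close to each other in these shares when all transcripts were summed, as the plot of the keratin pool shows. With curated transcripts alone the untreated samples lay apart, with 35.7% and 56.8% for Krt8 and Krt18 together and 60.5% and 38.3% for Krt80, and untreated replicate 2 summed to 0.668 FPKM. The other 45 keratin genes are left out of these sums and shares. They summed to 0.973 and 0.918 FPKM in untreated cells and to 1.56 and 2.14 FPKM after 5-AZA. The untreated shares are thus not shares of all keratin RNA.

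Among the 8 keratins followed here, type II keratins exceeded type I keratins in every sample. Type II keratins summed to 1.25 and 1.15 FPKM in untreated cells and to 17.1 and 21.3 FPKM after 5-AZA. Type I keratins summed to 0.0412 and 0 FPKM in untreated cells and to 4.40 and 5.67 FPKM after 5-AZA. The ratio of type II to type I was 30.3 in untreated replicate 1, had no value in replicate 2, and was 3.90 and 3.76 after 5-AZA. For the pair Krt8 and Krt18 alone the ratio was 26.3 in untreated replicate 1 and 3.62 and 3.89 after 5-AZA. The untreated ratios divide by 0.0412 and 0.0150 FPKM, and levels below 0.1 FPKM cannot be told from each other. The size of the difference in ratio between the groups is therefore not known. FPKM is scaled to transcript length, so these ratios compare levels between genes, of RNA and not of protein. Keratins outside the 8 were not counted. Krt10 alone was at 0.416 and 0.604 FPKM in untreated cells, above the type I sum of the 8. The ratios therefore hold for the 8 only.

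**Figure D2:**
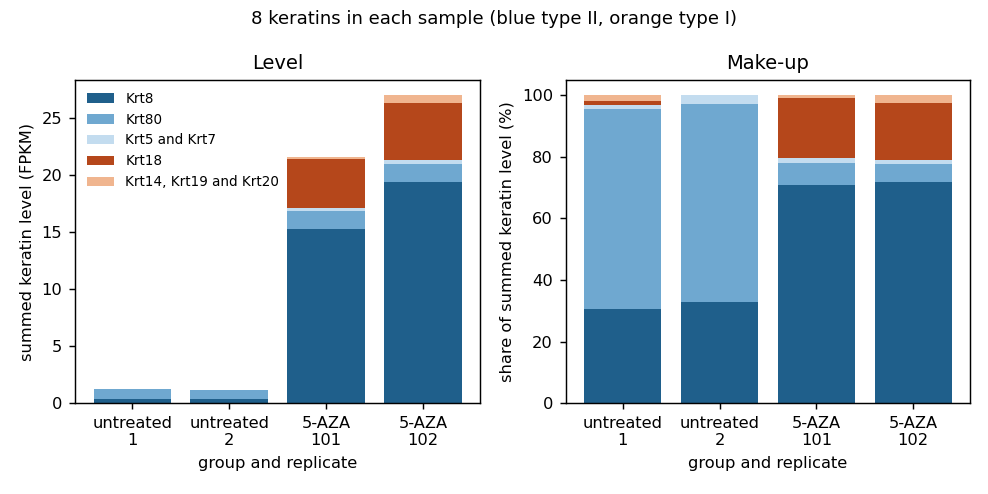
Summed level of the 8 keratins (left, FPKM) and the share of each keratin or group of keratins in that sum (right, %), 1 bar a sample, with type II keratins in blue and type I keratins in orange. The sum was 1.29 and 1.15 FPKM in untreated samples, mostly Krt80 (in replicate 2 only with its predicted transcript included), and 21.5 and 27.0 FPKM after 5-AZA, mostly Krt8 and Krt18.

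Vimentin was the only member with a lower level after 5-AZA. Its level was 2268 and 2406 FPKM in untreated cells and 1178 and 1380 FPKM after 5-AZA. The groups did not overlap, and the mean of 2337 ± 97.6 FPKM in untreated cells was 1.83 times that of 1279 ± 143 FPKM after 5-AZA (SD, n = 2 each), a log2 difference of -0.87 (SE 0.13). Among all genes of a sample, Vim ranked 11 and 8 by level in untreated cells and 20 and 19 after 5-AZA, and 316 of the genes tested had a larger fall. Even so, it was 54.7 and 51.1 times the sum of the 8 keratins after 5-AZA, against 1758 and 2086 times in untreated cells. Of the summed level of the 10 members, Vim held 99.7% and 99.8% in untreated cells and 97.0% and 96.8% after 5-AZA.

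Nestin differed in the opposite direction from its assembly partner vimentin. Its level was 4.56 and 3.27 FPKM in untreated cells and 14.7 and 17.99 FPKM after 5-AZA. There was no overlap, and the mean was 4.17 times as high after 5-AZA, with a log2 difference of 2.04 (SE 0.19). The ratio of Vim to Nes was 497 and 736 in untreated cells and 80.2 and 76.7 after 5-AZA. Of the genes tested, 960 had a larger rise.

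Ordered by level, the untreated cells held Vim, Nes, Krt80, Krt8 and Krt7, and the samples of each of these lay apart from those of the next. Krt7 overlapped with Krt14, and Krt14 with Krt18, at levels below 0.1 FPKM. After 5-AZA, Vim was followed by Krt8 and Nes, whose ranges overlapped, and then by Krt18, Krt80 and Krt7, which lay apart from each other. Krt19 and Krt14 overlapped, as did Krt14 and Krt5, and Krt20 was lowest. Krt8 thus stood behind Nes and Krt80 in untreated cells and beside Nes after 5-AZA. With curated transcripts alone no gene changed its place, but Krt80 and Krt8 then overlapped in untreated cells.

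**Figure D3:**
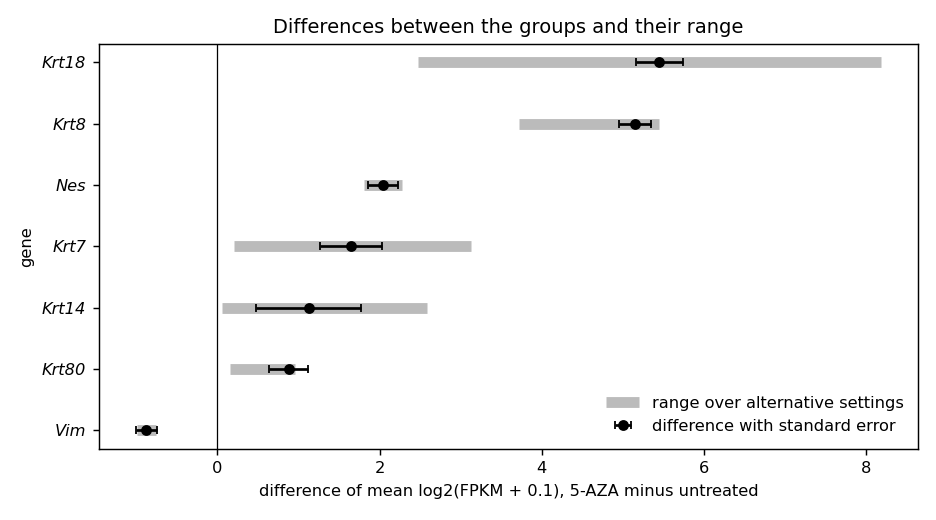
Difference of the mean log2(FPKM + 0.1), 5-AZA minus untreated, for the 7 members not listed at 0 in both untreated samples, with the standard error of the fit over all genes and, in grey, the range over alternative settings. The differences of Vim and Nes moved least with the setting (-0.99 to -0.76 and 1.81 to 2.28), and that of Krt18 moved most (2.47 to 8.18).

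Across the 10 members, 7 were higher without overlap after 5-AZA, 1 was lower without overlap and 2 overlapped. Krt5 counted among the 7 with all of its values below 0.1 FPKM, and it did not pass the filter that the shares over all genes apply. Of all 13199 genes tested, 36.8% were higher and 25.4% were lower without overlap, and nothing is read from the count of the members, since it follows from how they were chosen. The filter on low levels was passed by 8 of the 10, and Krt7, Krt14, Krt18 and Krt19 passed it only through the 5-AZA samples. In these bulk samples, more RNA per cell and more cells with the RNA cannot be told apart. All samples had similar FPKM sums over mRNAs (328410 to 361664), and the files used here give no read depth. Gapdh was at 407 and 381 FPKM in untreated cells and 480 and 600 FPKM after 5-AZA, and Actb at 1552 and 1426 against 1217 and 1328 FPKM.

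The genes most like a member were sought by the distance between log2 values centred on the mean of each gene over the 4 samples. Nearest to Krt8 were Ppp1r27, at 0.0820 and 0.0787 FPKM in untreated cells and 5.72 and 6.72 FPKM after 5-AZA, Uts2, which encodes the vasoactive peptide urotensin 2, and Pygm, the muscle glycogen phosphorylase, at 0.111 and 0.0961 against 5.94 and 7.47 FPKM. Its partner Krt18 was the 21st nearest of the genes tested. Nearest to Vim were Anxa11, a calcium-dependent membrane-binding protein, at 13.5 and 14.3 against 6.94 and 8.33 FPKM, then Srpx2 and Adgrg1. Nearest to Nes were Cxcl1, a chemokine that attracts neutrophils, at 2.82 and 2.07 against 8.93 and 11.1 FPKM, then Atp2a3 and Myo18b. With 4 samples in 2 groups, such likeness rests on few values.

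Around their genes, Krt8 and Krt18 lie side by side and transcribed away from each other. In GRCm38, Krt8 spans chr15:101996711-102004342 on the minus strand and Krt18 spans chr15:102028216-102032026 on the plus strand. Between them lie 23873 bases and no other gene of the mRNA table. The lncRNA NONMMUT025100.2, described below, lies in that gap, and the lncRNA NONMMUT096548.1 reaches into it. Within 200 kb on either side lay 18 genes of the mRNA table, these 2 included. On the Krt8 side were 8 other keratin genes (Krt73, Krt2, Krt1, Krt77, Krt76, Krt4, Krt79 and Krt78), none of which exceeded 0.209 FPKM in any sample. On the Krt18 side were 8 genes of other kinds, of which 2 were called higher and 6 were not called. A gene was called when its adjusted p was below 0.05 and its change over 2-fold (limma, Benjamini and Hochberg's adjustment over all genes tested), and 13.1% of all genes tested were called higher and 1.32% lower.

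Igfbp6, which encodes a binding protein of insulin-like growth factors, was at 0.502 and 0.171 FPKM in untreated cells and 18.7 and 17.8 FPKM after 5-AZA, a log2 rise of 5.51 (limma adjusted p = 7.81e-06). Itgb7, an integrin of lymphocytes, rose by 1.23 (limma adjusted p = 0.0148). Between Krt18 and these genes, Eif4b, Tns2 and Spryd3 lay at 9.60 FPKM or more in every sample and were not called. Spryd3, Soat2 and Krt79 also had both 5-AZA samples above both untreated ones, at 9.60 and 10.3 against 11.7 and 13.5 FPKM for Spryd3, 0.144 and 0.131 against 0.156 and 0.179 FPKM for Soat2 and 0 and 0.0131 against 0.0654 and 0.209 FPKM for Krt79. Eif4b and Zfp740 had both 5-AZA samples below both untreated ones. Eif4b was at 134 and 118 against 94.8 and 108 FPKM, and Zfp740 at 23.4 and 21.06 against 21.02 and 20.8 FPKM. Spryd3, Soat2, Eif4b and Zfp740 were not called, and Krt79 did not pass the filter. Of all genes tested, 36.8% were higher and 25.4% were lower without overlap.

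**Figure D4:**
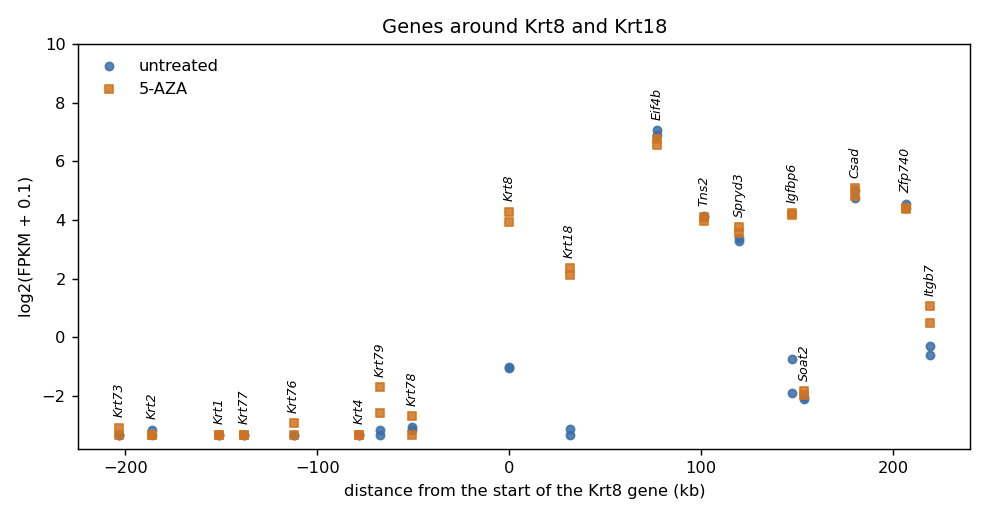
Level of the 18 genes around Krt8 and Krt18 as log2(FPKM + 0.1) against the distance from the start of Krt8 in kb, with untreated samples as circles and 5-AZA samples as squares. Krt8, Krt18, Igfbp6 and Itgb7 have their 5-AZA samples above the untreated ones by the widest gaps. Spryd3, Soat2 and Krt79 have them above by smaller gaps, and Eif4b and Zfp740 have them below. The other keratins on the left lie near 0 FPKM.

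Of the lncRNAs, 9 lay within 2000 bases of 5 of the members, and 4 of these reached 0.1 FPKM in any sample. NONMMUT025100.2, on the strand opposite to Krt8 and upstream of it, was at 0.0369 and 0.0150 FPKM in untreated cells and 0.102 and 0.386 FPKM after 5-AZA. NONMMUT025085.2, whose span covers Krt80, was at 0.368 and 0.425 FPKM in untreated cells and 1.15 and 0.534 FPKM after 5-AZA. NONMMUT096544.1, whose span overlaps that of Krt80, was at 0 and 0.0387 FPKM in untreated cells and 0.306 and 0.177 FPKM after 5-AZA. Each of these lncRNAs had higher values in the 5-AZA samples, and none was tested. The FPKM sum over all lncRNAs was also higher there, at 147311 and 150156 in untreated cells against 169514 and 223173 after 5-AZA. The share of all lncRNAs with such a rise was not computed, so nothing is read from these rises. NONMMUT108691.1, on the strand opposite to Vim, was listed at 0 in 1 sample of each group. Only 2 circRNAs were assigned to a member, both to Vim, each seen in 1 untreated sample (0.0535 and 0.0215 RPM) and listed at 0 in both 5-AZA samples.

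Of the other 45 keratin genes in the table, 19 were listed at 0 in all samples and none reached a mean of 1 FPKM in a group. Their levels summed to 0.973 and 0.918 FPKM in untreated cells and to 1.56 and 2.14 FPKM after 5-AZA. Krt10, a keratin of the suprabasal epidermis, had the highest single value, 0.604 FPKM in untreated replicate 2. Only Krt10, Krt13, Krt15 and Krt83 were tested, and 0 of 4 were called (limma), with an unadjusted p under 0.05 for Krt13 alone, at 0.0782 and 0.110 FPKM in untreated cells and 0.213 and 0.414 FPKM after 5-AZA. Under quantile normalization 1 of the 4 was called lower. Their median log2 change was 0.45. Of 54 keratin-associated protein genes of hair, 52 were listed at 0 in all samples. The large keratin values were therefore those of Krt8, Krt18 and Krt80.

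Among 14 other intermediate filament genes, 9 were tested, and limma called 4 of them higher and 0 lower (without adjustment, p was under 0.05 for 5 higher and 2 lower genes). Desmin (Des), the filament protein of muscle and a marker the study itself used, was at 0.335 and 0.162 FPKM in untreated cells and 18.1 and 30.2 FPKM after 5-AZA, a log2 rise of 6.12 (SE 0.31, limma adjusted p = 3.27e-06). Gfap, the filament protein of astrocytes, was at 1.43 and 1.70 FPKM in untreated cells and 7.66 and 13.7 FPKM after 5-AZA, a rise of 2.64 (limma adjusted p = 0.000143). Peripherin (Prph), of peripheral neurons, rose by 1.45 (limma adjusted p = 0.0250), though its difference turned negative under quantile normalization. Syncoilin (Sync), a muscle filament protein named after its values were seen, rose by 1.41 (limma adjusted p = 0.000365). The nuclear lamins were not called, and Lmna was at 158 and 140 FPKM in untreated cells against 93.9 and 115 FPKM after 5-AZA. Lmna and Lmnb2 had an adjusted p of 0.0151 and 0.0430 (limma) and were not called because each stayed within 2-fold. The neuronal Ina was listed at 0 in all samples, and Nefl, Nefm and Nefh did not pass the filter. The calls of Des and Gfap were lost without 5-AZA replicate 102, that of Sync without either 5-AZA sample and that of Prph without either untreated sample, with a pseudocount of 1 FPKM and under quantile normalization. Without a filter on low levels the call of Gfap was lost as well. The median log2 change of the 9 was 0.54, against 0.05 over all genes tested, and it was -0.01 under quantile normalization.

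Keratin filaments are anchored at desmosomes and hemidesmosomes. Of 21 genes of these junctions and of the linker proteins that bind filaments, 12 were tested, and 4 were called higher and 0 lower (limma; without adjustment, 5 and 1 had p under 0.05). Perp, a desmosome-associated membrane protein, was at 1.19 and 1.87 FPKM in untreated cells and 13.0 and 18.7 FPKM after 5-AZA, a log2 rise of 3.30 (limma adjusted p = 2.51e-05). Plakoglobin (Jup), which links cadherins to filaments, rose by 2.47 (limma adjusted p = 0.00501) and periplakin (Ppl), a filament linker, by 1.83 (limma adjusted p = 0.00820). Plakophilin 2 (Pkp2), named after its values were seen, rose by 1.73 (limma adjusted p = 0.00519). Perp, Jup and Ppl lost their call when either 5-AZA sample was left out, and Jup, Ppl and Pkp2 lost theirs with a pseudocount of 1 FPKM and under quantile normalization, Jup also without a filter. The desmosomal cadherins Dsc1, Dsc2, Dsc3, Dsg2 and Dsg3 and desmoplakin (Dsp), which ties keratins to the desmosome, did not pass the filter, and none exceeded 0.0396 FPKM in any sample. Itga6, an integrin of this list named after its values were seen, was at 28.1 and 28.7 FPKM in untreated cells and 14.1 and 16.6 FPKM after 5-AZA. Its adjusted p was 0.000713 (limma), and it was not called because its fall stayed within 2-fold. Without being called, Itgb4 and Pkp4 were also lower without overlap, and Macf1 was higher. The median change of the 12 was -0.07, and under quantile normalization 1 was called higher and 2 lower.

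Of 20 epithelial junction and regulator genes, 7 were tested, and 4 were called higher and 0 lower (limma; without adjustment, also 4 and 0 had p under 0.05). Trp63, the transcription factor of basal epithelia, was at 0.390 and 0.271 FPKM in untreated cells and 5.81 and 6.89 FPKM after 5-AZA, a log2 rise of 3.91 (SE 0.24, limma adjusted p = 8.64e-06). Grhl2, a regulator of epithelial junction genes, was at 0.0161 and 0.0103 FPKM against 0.586 and 0.683 FPKM, a rise of 2.70 (limma adjusted p = 0.000695). Elf3, an epithelial Ets factor, rose by 1.82 (limma adjusted p = 0.0106), and the adhesion protein Epcam, named after its values were seen, by 1.61 (limma adjusted p = 0.0214), a call that held in 4 of 11 alternatives and was lost whichever sample was left out. The call of Elf3 was lost without untreated replicate 2, with a pseudocount of 1 FPKM and under quantile normalization, and that of Grhl2 with a pseudocount of 1 FPKM. E-cadherin (Cdh1) was at 0.4995 and 0.497 FPKM in untreated cells and 0.157 and 0.367 FPKM after 5-AZA and was not called. Cldn7 and Esrp1 were listed at 0 in all samples. The median change of the 7 was 1.61, and it was 0.25 under quantile normalization, with 2 called higher and 1 lower. The whole list summed to 2.92 and 3.35 FPKM in untreated cells and to 9.48 and 11.4 FPKM after 5-AZA, most of it Trp63 after 5-AZA. Most of the untreated sum was Ehf, at 1.75 and 2.39 FPKM against 2.03 and 2.04 FPKM after 5-AZA. The part of the list in the keratin levels was not tested.

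The transcription factors that repress epithelial genes, such as Snai1, Snai2, Zeb1, Zeb2 and Twist1, were tested in 9 of 10 cases, and 0 were called (limma, with unadjusted p under 0.05 for 3 higher and 2 lower genes). Zeb1 was at 18.3 and 17.3 FPKM in untreated cells and 21.7 and 23.9 FPKM after 5-AZA, and Snai2 at 17.9 and 18.2 against 13.3 and 14.6 FPKM. The adjusted p (limma) was 0.0320 for Zeb2, 0.0391 for Twist2, 0.0451 for Snai2 and 0.0486 for Zeb1. These genes were not called because each stayed within 2-fold. Twist2 had the largest change of the 9, a log2 rise of 0.93. The median of the 9 was 0.22, and 1 was called higher without untreated replicate 1 and 1 lower under quantile normalization.

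Of 10 mesothelial and urothelial genes, whose tissues also carry Krt7, Krt8, Krt18 and Krt19, 4 were tested and 2 were called higher and 0 lower (limma, with the same counts at an unadjusted p under 0.05). Mesothelin (Msln), a surface protein of mesothelium, was at 0.0421 and 0.0265 FPKM in untreated cells and 4.93 and 4.21 FPKM after 5-AZA, a rise of 5.12 (limma adjusted p = 4.65e-06). Uroplakin 1b (Upk1b) was listed at 0 in both untreated samples and at 0.217 and 0.377 FPKM after 5-AZA (limma adjusted p = 0.00912), a call lost with a pseudocount of 1 FPKM and under quantile normalization. Upk2, Upk3a and the mesothelial factor Wt1 were listed at 0 in all samples. The list summed to 0.859 and 0.727 FPKM in untreated cells and 5.69 and 5.83 FPKM after 5-AZA, most of it Msln after 5-AZA. The median change of the 4 was 1.27, with 1 called higher and 1 lower under quantile normalization.

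Trophoblast genes, another tissue with Krt7, Krt8 and Krt18, gave 1 gene tested of 9 and 0 calls (limma, also 0 at an unadjusted p under 0.05), with Cdx2, Gcm1, Hand1, Tfap2c and Tpbpa listed at 0 in all samples. Of 10 genes of neural progenitors and glia, which share Nes, 3 were tested, 0 were called higher and 1 lower (limma, 0 and 2 at an unadjusted p under 0.05). Sox2, a stem cell factor, was at 1.57 and 2.01 FPKM in untreated cells and fell to 0.320 and 0.222 FPKM, a log2 change of -2.35 (limma adjusted p = 0.000480), a call lost when either 5-AZA sample was left out. Fabp7 and Olig2 were listed at 0 in all samples. The median change of the 3 was -0.60.

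**Figure D5:**
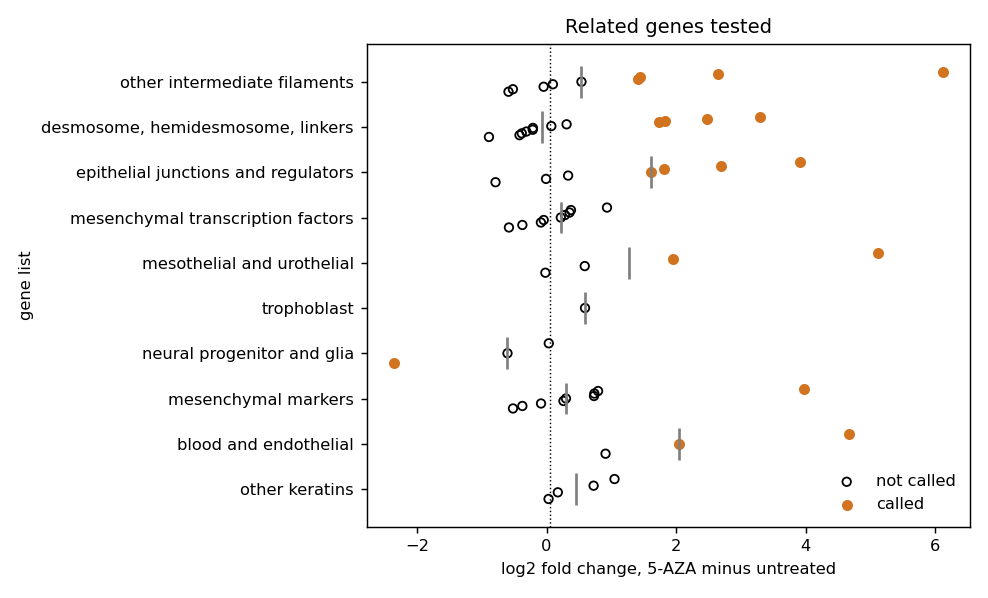
Log2 fold change (5-AZA minus untreated) of each gene tested in 10 lists of related genes, filled where called by limma, with the median of each list as a grey bar and that of all genes tested as a dotted line. Des, Msln, Cd34, Thy1, Trp63 and Perp lie far to the right, Sox2 alone is called on the left, and the mesenchymal transcription factors and other keratins have 0 calls.

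As a check of the cell line, 9 of 10 mesenchymal markers were tested, and 1 was called higher and 0 lower (limma, 6 and 2 at an unadjusted p under 0.05). Thy1 was at 0.578 and 0.785 FPKM in untreated cells and rose to 10.4 and 14.2 FPKM (limma adjusted p = 5.895e-06), and Nt5e was listed at 0 in both untreated samples. Ly6a, Pdgfra, Eng, Col1a1 and Col1a2 had an adjusted p below 0.05 (limma) and were not called because each stayed within 2-fold. The median change of the 9 was 0.30. Col1a2 lay between 420 and 600 FPKM, and Pdgfra, Pdgfrb, Cd44 and Itgb1 were well above 1 FPKM in all samples. Of 5 blood and endothelial markers, 3 were tested and 2 were called higher and 0 lower (limma, with the same counts before adjustment), with a median change of 2.05. Cd34, a surface protein of progenitor and endothelial cells, was at 0.387 and 0.488 FPKM in untreated cells and rose to 13.4 and 13.5 FPKM (limma adjusted p = 1.33e-06). Cdh5 was at 0 and 0.00622 FPKM and was called at 0.484 and 0.211 FPKM, a call lost with a pseudocount of 1 FPKM, without a filter and under quantile normalization. Kdr was listed at 0 in all samples, and the pan-leukocyte gene Ptprc at 0 in 3 samples and at 0.0631 FPKM in 5-AZA replicate 101. The list summed to 0.468 and 0.518 FPKM in untreated cells and to 14.2 and 13.9 FPKM after 5-AZA, mostly Cd34, and its part in the values of the members was not tested.

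Over the 10 related lists with genes tested, 17 of 61 genes were called higher and 1 lower. Of all 13199 genes tested, 13.1% were called higher and 1.32% lower. Of the 17, 8 lay below 0.1 FPKM in both untreated samples and passed the filter only through the 5-AZA samples, and the lists were written with earlier results known, so the counts describe these genes and are no test of the lists. With 2 samples against 2, an exact permutation test of a single gene can give no p below 0.333, so each call rests on the spread shared across genes.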

How the data were processed

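Stranded libraries of total RNA without ribosomal RNA were sequenced from 2 untreated and 2 5-AZA samples. The authors deposited FPKM values for 75959 mRNA transcripts and 131850 lncRNAs and RPM values for 4295 circRNAs. The submitters' processing notes name Trimmomatic, HISAT2, Bowtie2 2.2.9, eXpress 1.5.1 and mm9, with no roles given. Yet 86.9% of the 2427 host transcripts placed by the circRNA coordinates lay inside the gene spans of GRCm38, so the coordinates given here are those of RefSeq in GRCm38. The files used here give no read depth, so low values have no counting error.

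FPKM values were summed per gene over all transcript rows (14 rows for the 10 members, 13 curated and 1 predicted). After adding 0.1 FPKM and taking log2, a linear model was fitted by limma 3.58.1 under R 4.3.3, its variances moderated with a trend on the mean level, for genes whose mean over all 4 samples reached 0.1 FPKM, and p-values were adjusted by Benjamini and Hochberg's method over 13199 genes. The count test of the authors (DESeq) cannot be used on FPKM. Errors beside means are SDs over 2 samples. Members and lists were chosen with earlier results of these data known. Genes named are the members, up to 3 called higher and 3 called lower of each list without overlap between the groups, the 3 nearest to Krt8, Vim and Nes, Gapdh and Actb, and others where the text says so or a marker list is checked. The genes around Krt8 and Krt18 and the lncRNAs near members were added after the data were seen. Other pseudocounts, filters, scalings, eBayes without trend, curated transcripts and the omission of each sample were tried.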

Additional observations from a re-analysis of the deposited data

How the results depend on the processing

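The 8 members that passed the filter kept their direction under each alternative run. Krt5 and Krt20 were recomputed only without a filter and with curated transcripts, which leave their values as they are. Of 97 member values recomputed, 74 moved by less than the spread between replicates and 23 by as much or more. Many of the 74 could not move. Other filters leave a member value as it is, as do curated transcripts for all members but Krt80. Leaving out 1 of 2 samples can move a value by at most this spread. The 74 are thus no measure of stability. The widest ranges were those of Krt18 (2.47 to 8.18), Krt19 (0.28 to 4.44), Krt7 (0.21 to 3.12) and Krt14 (0.06 to 2.58), all low in untreated cells. Krt80 ranged from 0.16 to 0.96, with the lowest value under quantile normalization. The ratio of type II to type I keratins among the members in untreated replicate 1 was 26.9 with curated transcripts alone. A pseudocount of 1 FPKM gave 875 genes called higher and 86 lower (against 1724 and 174), and 8 related genes higher (against 17). Without a filter 83 genes were called lower, and with a mean of at least 1 FPKM 845 were called higher and 8 related genes, since fewer genes were tested. Quantile normalization gave 1041 genes higher and 886 lower, with 9 and 8 related genes, the share of higher calls was 54.0% against 90.8%, and the median log2 change of all genes was -0.12 against 0.05 (-0.06 under median centring); the cause was not tested. Leaving out 1 sample gave 785 (without 5-AZA replicate 102) to 1616 genes higher, with 977 without replicate 101, 50 to 181 lower with 66 without 102, and 10 to 16 related genes higher and 0 to 1 lower. With 1 sample left in a group, that sample is assumed to vary like the others. The calls of Cd34, Msln, Thy1 and Trp63 held in all 12 alternatives. No paired analysis was possible because the groups share no replicate number. The number of samples limits every value, and without read depth the levels below 0.1 FPKM cannot be told from each other.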
